A study of Homo sapiens with 15 samples.

Results

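The genes described here encode the protein subunits of the respiratory chain and of the ATP synthase, called complexes I to V, in K562 cells. Members were found by gene symbol, as protein-coding rows whose names begin with the prefixes of these subunits, and the rule itself uses no measured value. Of 57500 gene rows, 19737 were protein-coding and 104 were members. Of these, 13 are encoded by the mitochondrial genome, 7 in complex I, 1 in complex III, 3 in complex IV and 2 in complex V. The other 91 are nuclear genes, 40 in complex I, 4 in complex II, 10 in complex III, 17 in complex IV and 20 in complex V. Assembly factors are not members, and 174 pseudogene rows that share the prefixes were left out.

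Gene expression was measured by RNA sequencing of total RNA in 15 libraries of K562, an established line from a chronic myeloid leukaemia, in 5 groups of 3 libraries. The control is labelled as wild type with no treatment. The series text instead gives DMSO for its controls, and no label mentions transfection of these cells. The other groups carried Cas9FCPF, a Cas9 protein with an FCPF peptide tag delivered by transfection, with or without an sgRNA, and received 1 µM of JQ1 or of JQ1-FCPF for 1 h. The 4 treated groups are named below by compound and by the presence of an sgRNA. JQ1 binds the bromodomains of BET proteins and keeps them from acetylated histones, and JQ1-FCPF is the form named for the tag. The title of the series has dCas9, the form without cutting activity, where the labels have Cas9, and the labels name no sgRNA target. Where a treated group is set against the control, the parts of transfection, Cas9FCPF and compound cannot be told apart. Separate cultures are not stated for the replicates, so a p-value reflects the spread among these samples alone, and that spread may be technical.

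Complexes I, III and IV pass electrons from NADH to oxygen and pump protons across the inner mitochondrial membrane, complex II feeds in electrons from succinate without pumping, and complex V uses the proton gradient to make ATP. All complexes but complex II are built from subunits of both genomes. The mitochondrial genes lie on long transcripts that are read from both strands of a small circular genome and cut at the tRNAs between them, whereas each nuclear subunit gene has its own promoter.

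Because of this layout, neighbouring mitochondrial genes share bases, and the sequence shared by the ATP synthase genes MT-ATP8 and MT-ATP6 is shown to make clear why their counts are not fully separate. It covers 46 bases of the mitochondrial chromosome (GRCh38, forward strand, chrMT:8527-8572), which is 22.2% of the 207 bases of MT-ATP8. The first capitals mark the start codon of MT-ATP6, and the last capitals mark the stop codon of MT-ATP8.
MT-ATP8 and MT-ATP6 overlap: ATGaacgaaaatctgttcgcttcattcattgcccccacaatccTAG
MT-ND4L and MT-ND4 share 7 bases, and MT-ATP6 and MT-CO3 share 1. Whether strand was used in counting is not given in the sources used here, which bears on MT-ND6, the 1 member read from the other strand. Nuclear copies of mitochondrial sequence can take reads too. Their 399 pseudogene rows held 1.12% as many counts as the 13 genes, most of them in MTATP6P1 (chromosome 1, positions 633696 to 634376), at 195 to 620 CPM (counts scaled to a fixed library total).

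For the nuclear genes, the bases before the start of transcription are shown for SDHD, which holds the NRF1 and ETS letters described next, and for COX6B2, a low gene that passes a test below. Promoters from RefSeq (GRCh38.p14) were found for 71 of the 91 nuclear members. Capitals mark matches on either strand to the cores of NRF1 (GCATGCGC) and of the ETS factors such as GABPA (CCGGAAG), regulators known for binding promoters of respiratory genes, and to the SP1 box (GGGCGG), the YY1 core (AAGATGGC) and the E-box (CACGTG). Both sequences run 150 bases, ending at the base before the RefSeq start, which lies 100 bases inside the gene row of SDHD and 95 inside that of COX6B2. The long run of capitals in SDHD holds the NRF1 core on both strands, which overlap.
SDHD (complex II, chr11:112086723-112086872, plus strand): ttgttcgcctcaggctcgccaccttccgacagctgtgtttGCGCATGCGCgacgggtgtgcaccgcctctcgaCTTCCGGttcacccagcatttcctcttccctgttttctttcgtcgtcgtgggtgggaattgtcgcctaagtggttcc
COX6B2 (complex IV, chr19:55354720-55354869, minus strand): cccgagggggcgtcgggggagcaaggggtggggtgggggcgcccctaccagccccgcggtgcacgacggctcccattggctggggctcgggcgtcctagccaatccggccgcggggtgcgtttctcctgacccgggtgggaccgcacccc
SDHD holds the NRF1 and ETS letters, and COX6B2 holds none of the letters searched. Over the 250 bases before the start, the NRF1 core was present in 12 of the 71 members (16.9%), in 4.9% of the 9851 protein-coding genes tested for expression that had a promoter, and in 2.81% of all 27305 promoters. The ETS core was present in 17 of 71 (23.9%), against 16.6% and 8.82%. The SP1 box was present in 56.3%, against 68.4% and 42.3%, the E-box in 8.45%, against 8.95% and 6.49%, and the YY1 core in 1.41%, against 1.87% and 1.37%. A match of letters is a description and does not show that a factor binds there.

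Library totals were 12625669 to 17544518 counts, with 22970 to 27248 genes detected. JQ1 with sgRNA replicate 1 and JQ1-FCPF with sgRNA replicate 2 stood apart: the median gene differed from the mean of the other 2 libraries of the group by 0.27 and 0.28 on the log2 scale, against 0.11 to 0.19 in the other libraries. Results that rest on them are given with and without them. The labels call the cells lymphoblasts, but of 9 lymphoid markers 6 were under 1 CPM in every library, and CD3D stood at 17.4 to 32.4 CPM. All 9 erythroid markers of K562 were present (GATA1, KLF1, the fetal and embryonic globins and others, together 1590 to 2339 CPM), and of 5 epithelial and fibroblast markers KRT8, KRT18 and EPCAM carried nearly all of 740 to 1289 CPM. In bulk RNA, fewer cells of a type and less RNA per cell cannot be told apart.

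The mitochondrially encoded genes were the most abundant members by far. Levels between genes are given as TPM, in which each count is divided by the gene's exon length in the files and the library is brought to a fixed total, as means over the 15 libraries. In complex I the median was 6677 TPM over the 7 mitochondrial genes and 123.5 TPM over the 39 nuclear genes that passed the filter on low counts. MT-ND4 (15040 TPM) and MT-ND2 (9966 TPM), core proton-pumping subunits, were highest and MT-ND5, another of them, was lowest at 3295 TPM. Among the nuclear complex I genes, the accessory subunits NDUFS5 (2213 TPM) and NDUFB7 (776 TPM) were highest and NDUFA4L2 lowest, at 6.2 TPM. Complexes were assigned by symbol, and NDUFA4, counted here in complex I, is known as a subunit of complex IV. In complex III, MT-CYB, which encodes cytochrome b, stood at 4116 TPM, above the median of 256 TPM for the 10 nuclear genes, the highest of which were the hinge protein gene UQCRH (1597 TPM) and the cytochrome c1 gene CYC1 (659 TPM). UQCRHL, a gene whose sequence closely resembles UQCRH, was lowest at 48.3 TPM, and its value is uncertain because the reads of such copies can be split between them.

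In complex IV, MT-CO2 and MT-CO3 stood at 20620 and 20360 TPM and MT-CO1, the catalytic subunit, at 11270 TPM, against a median of 470 TPM over the 12 nuclear genes tested, led by COX8A (1487 TPM) and COX6B1 (1253 TPM). In complex V, MT-ATP6, the proton channel subunit, and MT-ATP8 stood at 21580 and 18690 TPM. The 18 nuclear genes of complex V that were tested had a median of 308 TPM, with the catalytic beta subunit ATP5F1B highest at 1469 TPM and the catalytic alpha subunit ATP5F1A lowest at 122.6 TPM. Complex II, which is nuclear throughout, had a median of 119 TPM, with the iron-sulfur subunit SDHB at 171 TPM, the membrane anchor SDHD at 135 TPM and the other anchor, SDHC, at 21 TPM. Exon lengths in the files join the exons of all transcripts, so a gene with long rare exons is understated: SDHC was divided by 14160 bases and ATP5F1A by 10908.

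**Figure D1:**
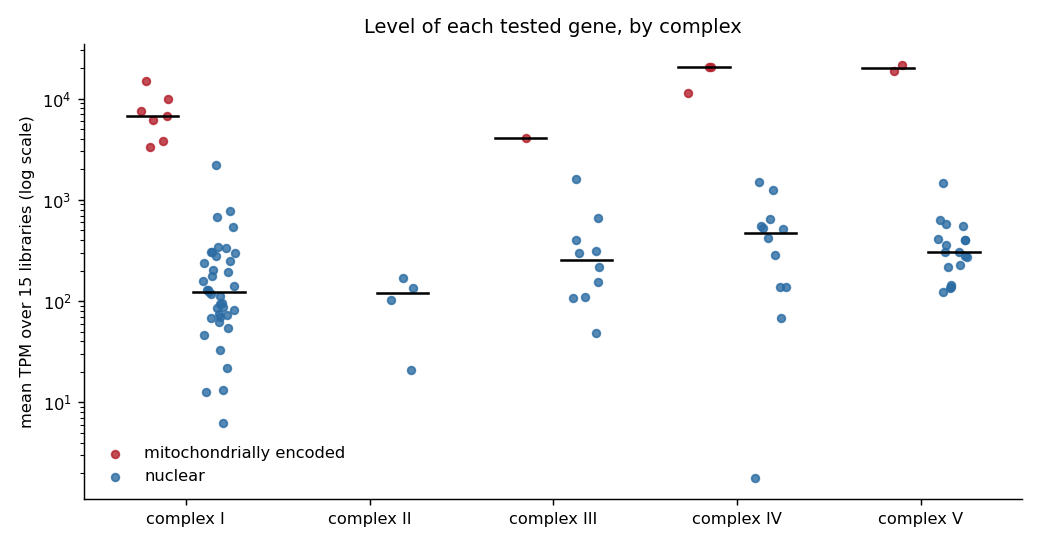
Mean level of each tested member over 15 libraries in TPM, on a log axis, by complex. Each point is a gene, red for mitochondrially encoded and blue for nuclear, and bars are medians; in complexes I, III, IV and V every mitochondrial gene lies above every nuclear gene of the same complex, and complex II has nuclear genes only.

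Where a subunit has tissue-specific versions, the K562 libraries held the general one. COX4I1 stood at 423 TPM and COX4I2, an isoform known from lung, at 0.0624 TPM, with 3 counts in all. COX6A1 (646 TPM) and COX6A2 (0.0529 TPM), COX7A2 (287 TPM) and COX7A1 (0.706 TPM), COX8A and COX8C (0.0495 TPM), and COX7B (139 TPM) and COX7B2 (0.78 TPM) gave the same order. COX7A2L, a related gene that helps join complexes III and IV, stood at 67.8 TPM. NDUFA4 stood at 123.5 TPM, above its relative NDUFA4L2, and COX6B1 stood above COX6B2, an isoform known from testis, at 1.79 TPM. The 3 genes that encode the same c subunit of the ATP synthase ring were all expressed, ATP5MC3 at 308 TPM, ATP5MC2 at 276 TPM and ATP5MC1 at 219 TPM, and ATP5IF1, which encodes the inhibitor of the enzyme, at 399 TPM. The members that did not pass the filter were COX4I2, COX6A2, COX7A1, COX7B2, COX8C, NDUFC2-KCTD14, ATP5MF-PTCD1 and ATP5MGL, with at most 11 counts in any library. The tests below are therefore over 13 mitochondrial and 83 nuclear genes.

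The share of all counts taken by the 13 mitochondrial genes varied widely within groups. It was 5.91%, 3.21% and 3.63% in the control libraries, 2.28%, 2.31% and 3.18% with JQ1 without sgRNA, and 7.38%, 3.02% and 2.75% with JQ1 and sgRNA. It was 2.76%, 5.17% and 5.65% with JQ1-FCPF without sgRNA, and 5.27%, 4.34% and 3.42% with JQ1-FCPF and sgRNA. All 3 libraries of JQ1 without sgRNA lay below all 3 control libraries, and the other groups overlapped the control. The 91 nuclear genes took between 1.46% and 1.96% of counts in the 15 libraries, with a range of 1.35-fold against 3.24-fold for the mitochondrial genes. The lowest nuclear share and the highest mitochondrial share were in the same library, JQ1 with sgRNA replicate 1. The ratio of summed mitochondrial to summed nuclear counts ran from 1.16 to 5.07, with group means of 2.47 ± 0.90 in the control, 1.39 ± 0.31 with JQ1 without sgRNA and 2.72 ± 2.03 with JQ1 and sgRNA (SD, n = 3).

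**Figure D2:**
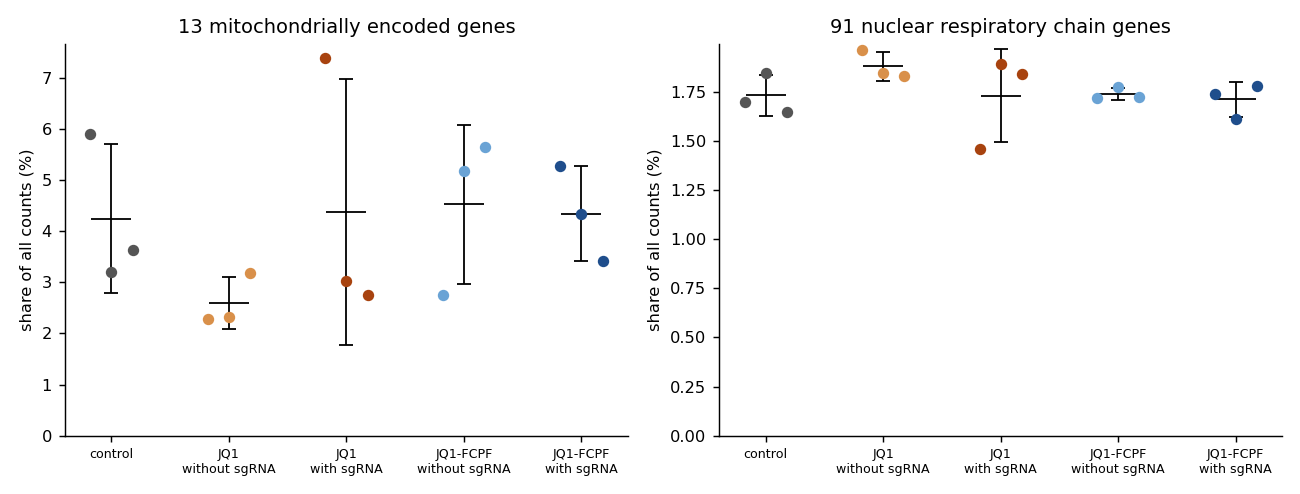
Share of all counts in percent taken by the 13 mitochondrial genes (left) and the 91 nuclear genes (right), by group. Points are libraries in the order of replicates 1 to 3, and bars give the mean ± SD of 3; the mitochondrial share spans 2.28% to 7.38%, and JQ1 without sgRNA lies below the control and below JQ1-FCPF with sgRNA without overlap.

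Libraries of the same group differed more in the mitochondrial genes than in most other genes. The SD of log2 levels within groups had a median of 0.50 over the 13 genes (0.37 for MT-ND3 to 0.58 for MT-ND4L), 0.18 over the 83 nuclear members, 0.19 over all 15517 genes tested and 0.15 over 241 other nuclear protein-coding genes of at least 500 CPM. The 13 genes deviated together. Pearson's r between the within-group deviations of a pair of them had a median of 0.971 over 78 pairs, from 0.886 to 0.996, across 15 libraries, a description of points that share the same library and scaling. The nuclear members tested lay at a median of -0.34 on the log2 scale from the control mean in JQ1 with sgRNA replicate 1 and -0.14 in JQ1-FCPF with sgRNA replicate 2, and between -0.09 and 0.18 in the other libraries.

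JQ1 without sgRNA was the 1 treated group with mitochondrial genes called against the control. All 13 had a lower mean with JQ1, with a median log2 fold change of -0.71, and 3 of them fell beyond the test's threshold, MT-ND1, MT-CYB and MT-ATP8 (edgeR, quasi-likelihood, adjusted p under 0.05 by Benjamini-Hochberg over all 15517 genes). Among all genes 12.3% were called there, 6.23% as lower and 6.07% as higher, with a median log2 fold change of 0.00. With the 3 called genes included, 10 of the 13 had an unadjusted p under 0.05, a level reached by 4382 of all 15517 genes. The libraries of both groups did not overlap for 10 of the 13, against 41% of all genes.

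MT-ND1, a core complex I subunit (mitochondrial chromosome, positions 3307 to 4262), stood at 3246, 1778 and 1937 CPM in the control and at 972, 988 and 1297 CPM with JQ1 without sgRNA. All JQ1 libraries lay below the lowest control library. The log2 fold change was -1.10 ± 0.30 (SE, edgeR adjusted p = 0.0241). MT-CYB (positions 14747 to 15887) stood at 2623, 1443 and 1533 CPM against 815, 807 and 1080 CPM, again without overlap, a log2 fold change of -1.05 ± 0.30 (edgeR adjusted p = 0.0269). MT-ATP8 (positions 8366 to 8572) stood at 2150, 1154 and 1306 CPM against 556, 626.5 and 896 CPM, a log2 fold change of -1.15 ± 0.34 (edgeR adjusted p = 0.0334). At the other end, MT-ND5, at 2429, 1430 and 1621 CPM in the control and 1054, 1430 and 1846 CPM with JQ1, overlapped between the groups, with a log2 fold change of -0.34 and a 95% interval of -0.92 to 0.24. MT-ND6 was similar, at -0.36 (95% interval -0.88 to 0.17).

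These values depended on the libraries used. The median of the 13 genes was -0.40 without control replicate 1 and between -0.89 and -0.64 when any other 1 library of both groups was left out. Each of the 3 calls was lost when control replicate 1 or 3 or any 1 of the JQ1 libraries was left out, with edgeR adjusted p-values of 0.0523 to 0.163, and with DESeq2, with adjusted p-values of 0.0519 to 0.0829. Without the 2 libraries that stand apart, which belong to neither group but enter the estimate of spread, 11 of the 13 mitochondrial genes were called lower and the median log2 fold change was -0.70, while the share of all genes called rose to 26.9%. By complex, as a share of counts, the complex I genes of the mitochondrial genome went from 1.69 ± 0.56% in the control to 1.10 ± 0.23% with JQ1, those of complex IV from 1.66 ± 0.57% to 1.05 ± 0.19%, those of complex V from 0.708 ± 0.253% to 0.359 ± 0.0854%, and MT-CYB from 0.186 ± 0.0689% to 0.091 ± 0.0161% (SD, n = 3).

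The nuclear genes lay slightly on the other side in group means, but the libraries overlapped. Their median distance from the control mean was -0.05, 0.14 and -0.09 on the log2 scale in the control libraries. With JQ1 without sgRNA it was 0.18, 0.07 and 0.08. Of the 83 tested, 70 had a higher mean with JQ1 without sgRNA, against 7719 of all 15517 genes. The median log2 fold change was 0.10, where the library median had a pooled within-group SD of 0.16. Beyond the threshold 2 rose, NDUFA4L2 and NDUFC2. That is a smaller share than the 6.07% of all genes called higher. The medians were 0.11 for nuclear complex I, 0.10 for complex II, 0.14 for complex III, 0.12 for complex IV and 0.09 for complex V. Without the 2 libraries that stand apart 16 nuclear genes were called higher and 1 lower, against 26.9% of all genes called.

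**Figure D3:**
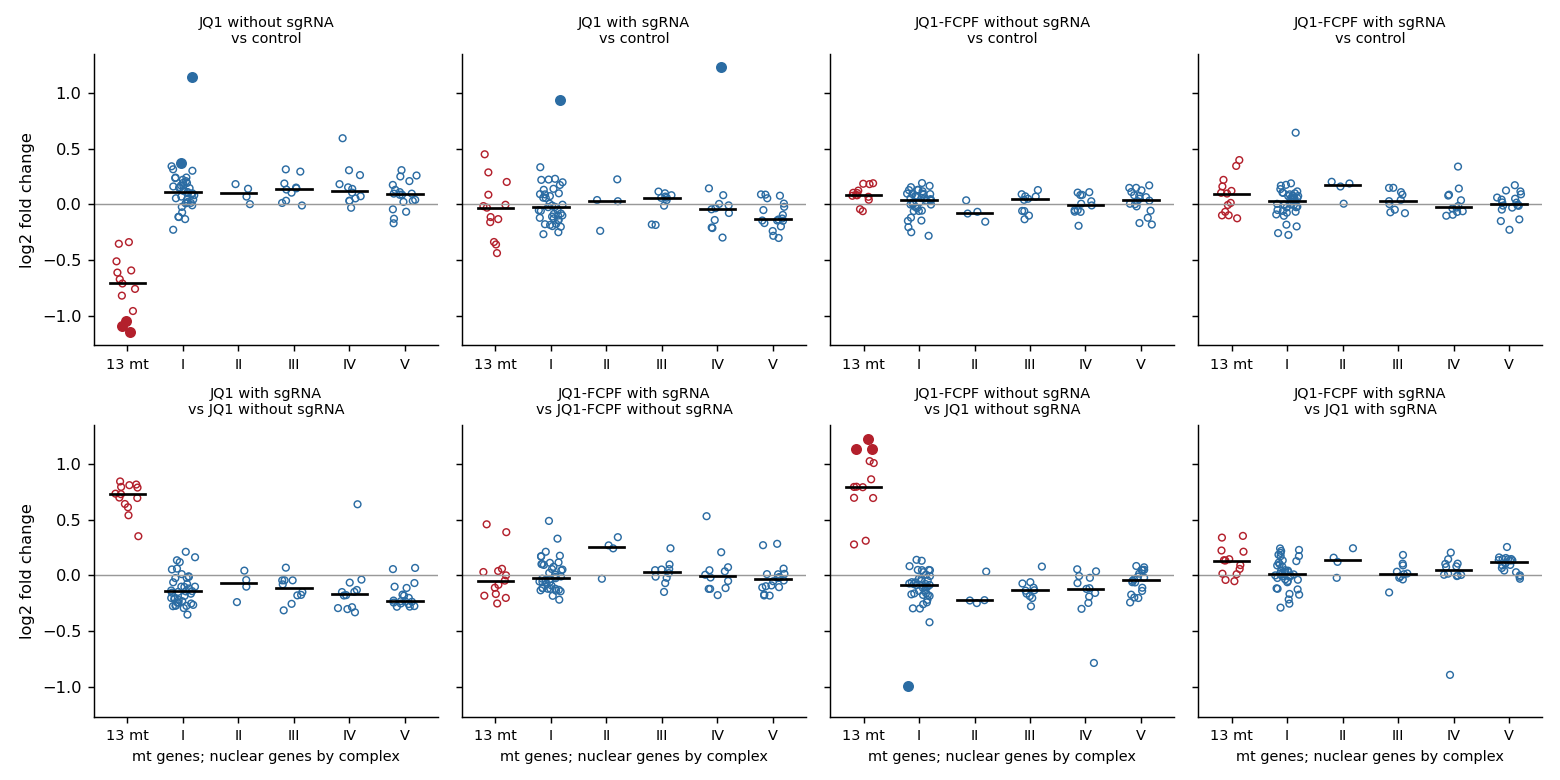
Log2 fold change of each tested member in the 8 comparisons between groups, for the 13 mitochondrial genes (mt, red) and for the nuclear genes by complex (blue). Filled points passed the edgeR test at an adjusted p under 0.05 and bars are medians; the mitochondrial genes lie at a median of -0.71 for JQ1 without sgRNA against the control, where the nuclear medians are 0.09 to 0.14.

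NDUFA4L2, a relative of the subunit gene NDUFA4 known for its rise in low oxygen (ENSG00000185633, chromosome 12, positions 57234903 to 57240715), had the smallest adjusted p of the members called. It stood at 3.88, 3.45 and 3.58 CPM in the control, 7.34, 7.78 and 9.09 CPM with JQ1 without sgRNA, and 7.68, 5.56 and 7.59 CPM with JQ1 and sgRNA. With JQ1-FCPF it stood at 3.38, 4.35 and 4.46 CPM without sgRNA and at 4.29, 8.03 and 4.85 CPM with sgRNA. The 6 JQ1 libraries lay above all control libraries and above all libraries of JQ1-FCPF without sgRNA. Against the control the log2 fold change was 1.15 ± 0.21 for JQ1 without sgRNA (edgeR adjusted p = 0.00263) and 0.93 ± 0.21 for JQ1 with sgRNA (edgeR adjusted p = 0.00751), and both calls held in every alternative run. For JQ1-FCPF with sgRNA it was 0.64 ± 0.22 and did not pass (edgeR adjusted p = 0.078), the highest library there being replicate 2, which stands apart. The gene is low, with 1258 counts over the 15 libraries, and NDUFA4 itself was not called in any of the 9 comparisons with all libraries. It shares 33 exon bases with SHMT2 on the opposite strand, an abundant gene at 354.9 ± 15.6 CPM in the control and 401 ± 13.3 CPM with JQ1 without sgRNA, with a log2 fold change of 0.17 (edgeR adjusted p = 0.343), and its part in the result was not tested.

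NDUFC2, an accessory subunit of the membrane arm of complex I (chromosome 11, positions 78068304 to 78080219), stood at 59.9, 72.3 and 60.8 CPM in the control and at 91.1, 77 and 81.3 CPM with JQ1 without sgRNA. The groups did not overlap, and the log2 fold change was 0.37 ± 0.11 (edgeR adjusted p = 0.0354). The call was lost without control replicate 1 or 3 or any 1 of the JQ1 libraries, with edgeR adjusted p-values of 0.0602 to 0.164, and without the filter on low counts (0.0567). In the other treated groups it stood between 60.8 and 78.9 CPM, within or near the range of the control.

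**Figure D4:**
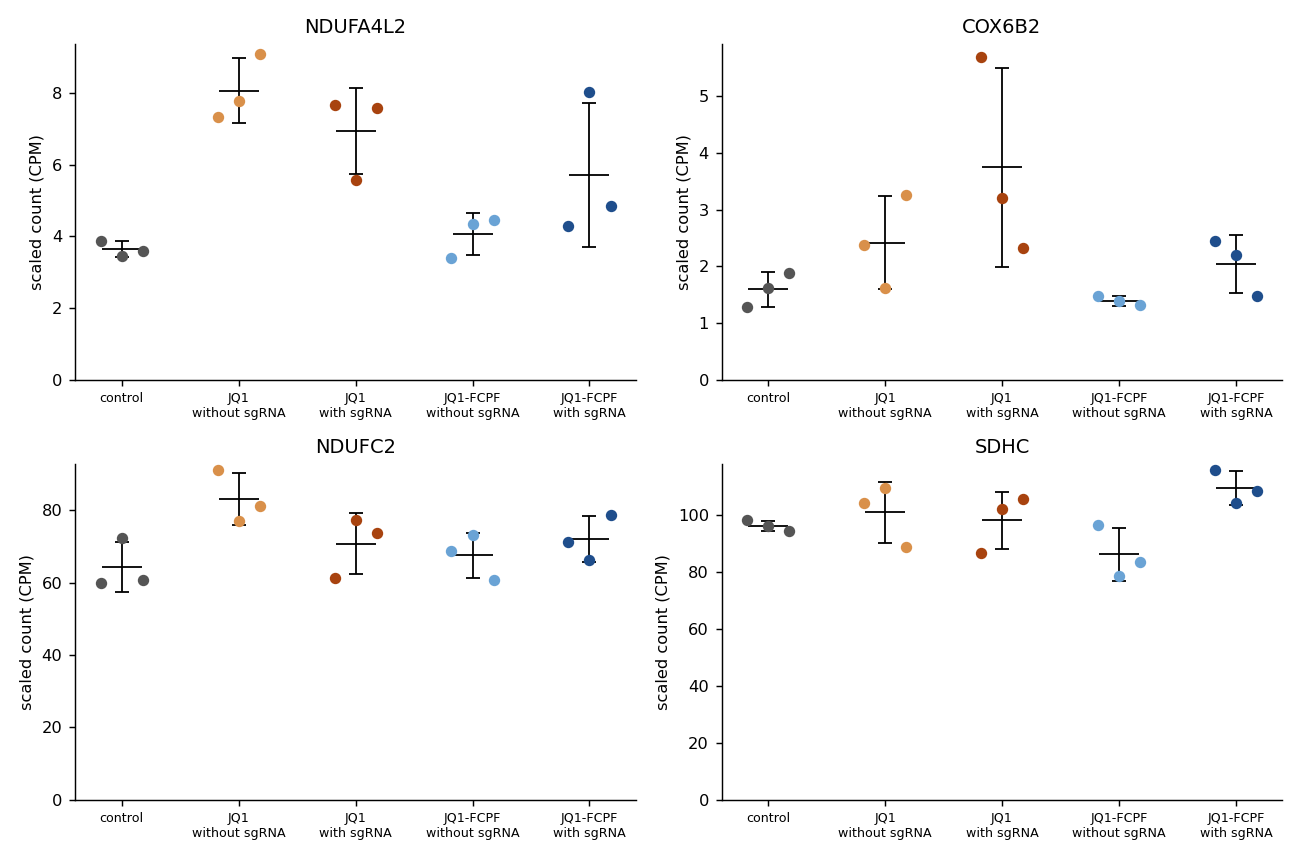
Scaled counts (CPM) of NDUFA4L2, COX6B2, NDUFC2 and SDHC by group. Points are libraries in the order of replicates 1 to 3 and bars give the mean ± SD of 3; NDUFA4L2 lies above the control in all 6 JQ1 libraries, and the highest COX6B2 value, 5.7 CPM, is in JQ1 with sgRNA replicate 1.

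With JQ1 and sgRNA against the control, none of the 13 mitochondrial genes was called by edgeR or had an unadjusted p under 0.05. Their median log2 fold change was -0.03. Of all 15517 genes 14.2% were called, and 4671 had an unadjusted p under 0.05. MT-ND1 stood at 2908, 1314 and 1196 CPM, so that replicate 1 lay within the range of the control and the other libraries below it. With replicate 1 left out the median of the 13 genes was -0.59. It was -0.59 too when both libraries that stand apart were left out, and 7 of the 13 were called lower, against 22.8% of all genes. Of the nuclear members 2 rose, NDUFA4L2 and COX6B2. COX6B2 (ENSG00000160471, chromosome 19, positions 55349306 to 55354814) stood at 1.27, 1.62 and 1.87 CPM in the control and 5.7, 3.21 and 2.33 CPM with JQ1 and sgRNA, a log2 fold change of 1.23 ± 0.31 (edgeR adjusted p = 0.0134). This call was lost without control replicate 1 (0.0556), without replicate 1 of the treated group (0.0917) and with both libraries that stand apart left out (0.0525), and the gene had 505 counts in all. The other 81 nuclear genes did not pass, and the median over all 83 was -0.03, which became 0.11 without JQ1 with sgRNA replicate 1. Without both libraries 13 nuclear genes were called higher, among them NDUFA4L2 and SDHA.

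JQ1-FCPF without sgRNA left no member called against the control, where 0.00644% of all genes were called. The medians were 0.08 over the 13 mitochondrial genes and 0.03 over the nuclear genes. Unadjusted p was under 0.05 for 0 and 1 of them, against 285 of all 15517 genes, and DESeq2 called 2 genes in all. Leaving out single libraries took the medians from -0.13 to 0.39 and from -0.01 to 0.10, so their sign was not stable. JQ1-FCPF with sgRNA likewise left none called, against 7.21% of all genes, with medians of 0.10 and 0.03, which were 0.11 and 0.11 without the 2 libraries that stand apart and from -0.11 to 0.37 and from -0.03 to 0.11 without single libraries. The 13 mitochondrial genes ran there from -0.13 to 0.40. Of them 0, and 2 nuclear genes, had an unadjusted p under 0.05, against 3374 of all 15517 genes. DESeq2 called no member in either comparison. All 4 comparisons with the control share the same 3 control libraries.

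The compounds were compared at the same dose and time, without sgRNA and with it. Without sgRNA, MT-CYB, MT-ND1 and MT-ATP8 were higher with JQ1-FCPF than with JQ1, by 1.13 ± 0.30, 1.14 ± 0.30 and 1.23 ± 0.34 on the log2 scale (edgeR adjusted p = 0.0267, 0.0284 and 0.0346), and the median over the 13 genes was 0.80. Among all genes 7.8% were called, 4.11% as higher and 3.69% as lower. MT-ND1 stood at 1429, 2717 and 3014 CPM with JQ1-FCPF, above the JQ1 libraries in each case. NDUFA4L2 was lower with JQ1-FCPF, by -0.99 ± 0.21 (edgeR adjusted p = 0.0109), the 1 nuclear member called, and the nuclear median was -0.09. The 3 mitochondrial calls were lost with DESeq2 (adjusted p 0.0517 to 0.0771), without any 1 of the JQ1 libraries and without JQ1-FCPF replicate 2 or 3 (edgeR adjusted p 0.0551 to 0.156). NDUFA4L2 was lost without JQ1 replicate 2 (0.0544). Without JQ1-FCPF without sgRNA replicate 1, 11 members were called, against 6.15% of all genes. Without the 2 libraries that stand apart 11 mitochondrial genes were called higher and 14 nuclear genes lower, against 22.6% of all genes. The JQ1 libraries here are the same as those set against the control above.

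With sgRNA, no member was called between the compounds, against 2.95% of all genes, and the median over the mitochondrial genes was 0.13. An unadjusted p under 0.05 was reached by 0 mitochondrial and 5 nuclear genes, against 2833 of all 15517 genes. The 95% interval of MT-ND1 ran from -0.27 to 0.98 and that of MT-ND5 from -0.63 to 0.52, so the compounds were not shown to act alike. Without JQ1 with sgRNA replicate 1 the median was 0.67, and without both libraries that stand apart 7 mitochondrial genes were called higher, and 3 nuclear genes higher and 3 lower, against 20.2% of all genes. Without JQ1-FCPF with sgRNA replicate 2 alone, 7 members were called, against 17.4% of all genes.

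The effect of the sgRNA under each compound gave no call among the members. For JQ1 with against without sgRNA, 0.0129% of all genes were called, and all 13 mitochondrial genes had a higher mean with sgRNA. Their median log2 fold change was 0.73, and 10 had an unadjusted p under 0.05, against 1264 of all 15517 genes. No mitochondrial gene had groups without overlap, against 15.4% of all genes, and without JQ1 with sgRNA replicate 1 the median was 0.12. The nuclear median was -0.16, with 10 genes at an unadjusted p under 0.05. For JQ1-FCPF with against without sgRNA, 6.25% of all genes were called and the medians were -0.05 and -0.01. An unadjusted p under 0.05 was found for 0 mitochondrial and 8 nuclear genes, against 3375 of all 15517 genes. The difference between these 2 effects, tested as an interaction, called no member, against 0.786% of all genes. Its medians were -0.74 for the mitochondrial and 0.16 for the nuclear genes. Unadjusted p was under 0.05 for 2 and 4, against 2162 of all 15517 genes. Without JQ1 with sgRNA replicate 1 its mitochondrial median was -0.21.

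Complex II had the highest median of the nuclear complexes for JQ1-FCPF with against without sgRNA, at 0.26 over its 4 genes, and was singled out after these values were seen. SDHC, which with SDHD anchors the complex in the membrane, stood at 96.5, 78.5 and 83.5 CPM without sgRNA and 116, 104 and 108 CPM with it, without overlap. Its log2 fold change of 0.34 ± 0.10 missed the threshold (edgeR adjusted p = 0.0527) and passed without the 2 libraries that stand apart, as the 1 member called there against 10.2% of all genes. It also passed with DESeq2, with DESeq2's size factors in edgeR, with mitochondrial rows left out of the scaling, and without JQ1-FCPF without sgRNA replicate 1 or JQ1-FCPF with sgRNA replicate 2. SDHA, the flavoprotein subunit that oxidises succinate, had 0.27 ± 0.11 and SDHB 0.24 ± 0.10, neither called, and SDHD -0.03. The control libraries of SDHC, at 97.9, 95.9 and 94.3 CPM, lay between both groups, apart from 1 library without sgRNA at 96.5 CPM.

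The balance among the 13 mitochondrial genes was then examined, because a change that scales all 13 alike leaves it as it is. Each gene was expressed as a centred log ratio, the log2 of its count over the geometric mean of the 13 counts in the same library. Single ratios still differed with the share. That of MT-ND3 was -1.54 in control replicate 1, which had the highest share of its group, and -1.30 and -1.32 in the other control libraries. In JQ1 with sgRNA replicate 1, with the highest share of all, it was -1.71, against -1.34 and -1.33 in its group. The part of the share in the ratios was not tested. With JQ1 without sgRNA, 6 of the 13 ratios lay above all control libraries, 4 below and 3 overlapped, and with JQ1 and sgRNA 4 lay above, 3 below and 6 overlapped. With JQ1-FCPF without sgRNA 12 of 13 overlapped the control, and with JQ1-FCPF and sgRNA 2 lay above, 3 below and 8 overlapped. These counts are descriptions with no test, and the ratios of 1 library are bound to sum to 0. In plain log2 levels, 41%, 34.5%, 7.46% and 25.1% of all genes did not overlap the control in these 4 groups, in the same order. Ratios within other sets of genes were not computed, so the counts have no reference of their own kind.

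MT-ND5 and MT-ND6, complex I genes that lie side by side on opposite strands, were relatively higher in the JQ1 groups and MT-ND1, MT-ATP8 and MT-CYB relatively lower. The centred log ratio of MT-ND1 was -0.04, -0.11 and -0.11 in the control, -0.38, -0.42 and -0.48 with JQ1 without sgRNA, and -0.39, -0.37 and -0.40 with JQ1 and sgRNA. All 6 JQ1 libraries lay below the control, replicate 1 with sgRNA included. In JQ1-FCPF without sgRNA it was -0.15, -0.13 and -0.10, and with sgRNA -0.08, -0.34 and -0.10, the low value being in replicate 2, which stands apart. For MT-ND5 it was -0.46, -0.42 and -0.37 in the control, -0.26, 0.11 and 0.03 with JQ1 without sgRNA, and -0.01, 0.10 and 0.22 with JQ1 and sgRNA. MT-ND5 lay above the control in all JQ1 libraries and also in JQ1-FCPF with sgRNA, at -0.04, -0.11 and -0.20, but not in JQ1-FCPF without sgRNA, at -0.43, -0.52 and -0.70. MT-ND6 moved by 0.39, 0.39, -0.11 and 0.25 from the control mean in the 4 treated groups in that order, and MT-ATP8 by -0.41, -0.36, -0.02 and -0.19. The group mean of MT-CO1, by contrast, stayed within -0.02 to 0.02 of the control mean in all 4. Its single libraries varied more. With JQ1 and sgRNA they were 1.43, 1.27 and 1.22, on both sides of the control libraries at 1.35, 1.33 and 1.29.

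**Figure D5:**
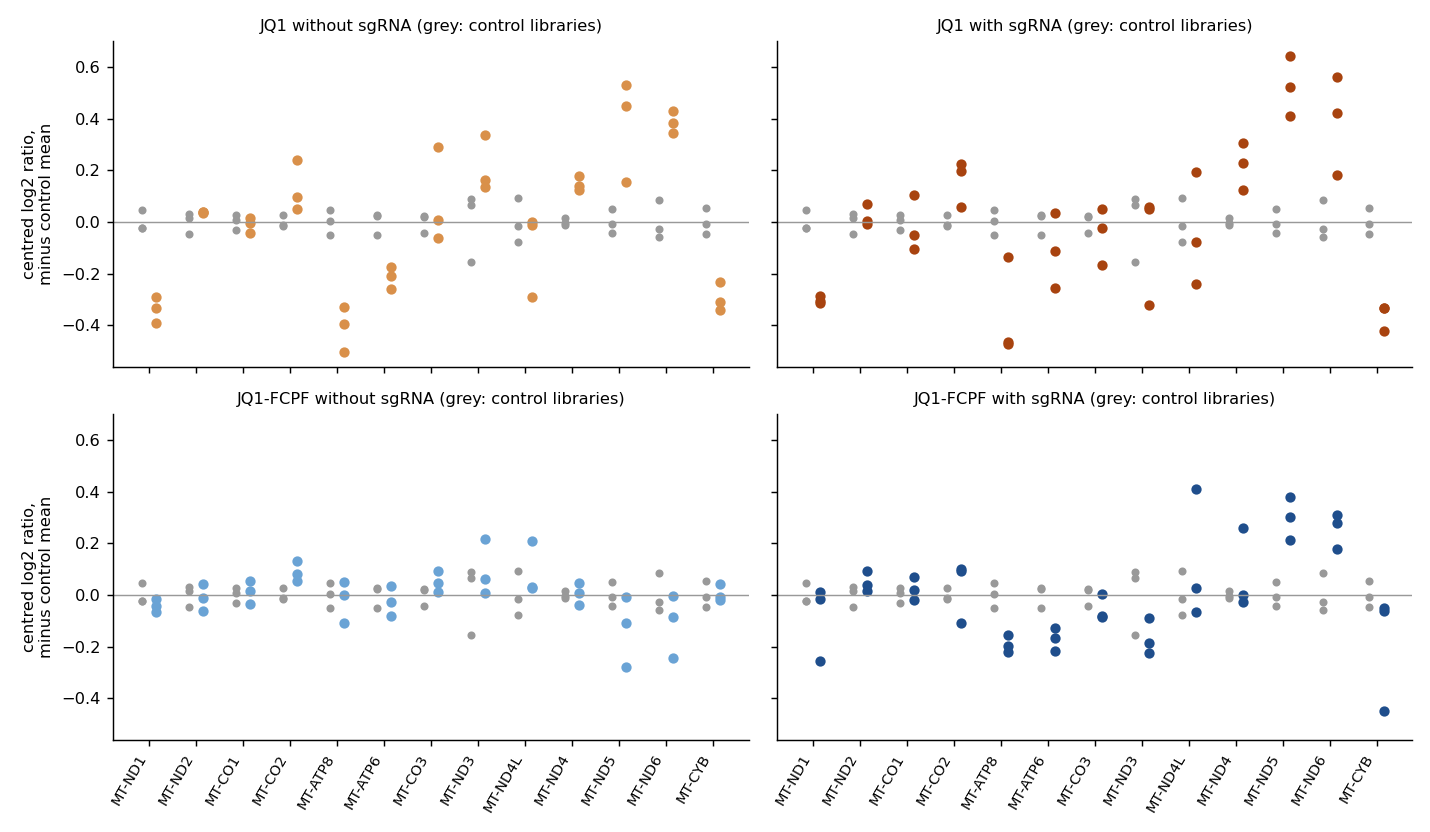
Centred log2 ratio of each mitochondrial gene, minus the control mean, in the 4 treated groups, with genes in their order along the genome. Coloured points are the 3 libraries of the group and grey points the 3 control libraries; MT-ND5 and MT-ND6 lie above and MT-ND1 and MT-CYB below the control in all 6 JQ1 libraries.

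The ratio of a single pair is given in plain counts. It follows directly from the centred log ratios above and is not separate evidence. The pair was chosen after its values were seen, so it is given without a test. Counts of MT-ND5 over those of MT-ND1 were 0.748, 0.805 and 0.837 in the control, 1.08, 1.45 and 1.42 with JQ1 without sgRNA, and 1.31, 1.39 and 1.54 with JQ1 and sgRNA. They were 0.828, 0.762 and 0.663 with JQ1-FCPF without sgRNA and 1.03, 1.17 and 0.933 with JQ1-FCPF and sgRNA. The 6 JQ1 libraries and the 3 libraries of JQ1-FCPF with sgRNA lay above all control libraries, and the libraries of JQ1-FCPF without sgRNA did not. Unlike the total mitochondrial share, this ratio in JQ1 with sgRNA replicate 1 lay with the rest of its group. The labels give no strand use for counting and no RNA quality per library, so their part in this ratio was not tested.

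Other genes that act on the respiratory chain were taken from lists, whose counts are to be read against the 12.3%, 14.2% and 7.21% of all genes called against the control for JQ1 without sgRNA, JQ1 with sgRNA and JQ1-FCPF with sgRNA. Without the 2 libraries that stand apart these shares were 26.9%, 22.8% and 11.1%, and for JQ1-FCPF with against without sgRNA they were 6.25% and 10.2%. Of 31 genes of mitochondrial transcription and RNA handling, 0 rose and 3 fell with JQ1 without sgRNA against the control, with a median of -0.11, and 0 rose and 8 fell with JQ1 and sgRNA, with a median of -0.18. TFB2M, a mitochondrial transcription factor, fell by 0.58 and 0.48 on the log2 scale (edgeR adjusted p = 0.00572 and 0.0122), FASTKD3, which acts on mitochondrial RNA, by 0.60 and 0.63 and TWNK, the mitochondrial DNA helicase, by 0.36 and 0.53. With JQ1-FCPF and sgRNA against the control 5 fell and 0 rose, among them MTPAP, the mitochondrial poly(A) polymerase, by 0.61 (edgeR adjusted p = 0.000436), and with JQ1-FCPF without sgRNA none was called. For JQ1-FCPF with against without sgRNA 4 fell, led by MTPAP (-0.56) and TWNK (-0.55). Without the 2 libraries that stand apart the counts against the control were 2 higher and 6 lower, 1 and 10, and 1 and 5 in those 3 groups, and TFB2M, FASTKD3 and TWNK were among the lower genes in each.

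Of 12 regulators of respiratory genes that were tested, PPRC1, a coactivator of the PGC-1 family, fell with JQ1 without sgRNA by 0.41, with JQ1 and sgRNA by 0.57 and with JQ1-FCPF and sgRNA by 0.70 (edgeR adjusted p = 0.0116, 0.00152 and 9.02e-05). In the latter groups MYC fell too, by 0.63 and 1.73 (edgeR adjusted p = 0.00486 and 4.37e-08), and YY1 fell in the former, by 0.31. With both libraries that stand apart left out, 1 regulator rose and 4 fell with JQ1 without sgRNA, MYC among those called, 1 rose and 3 fell with JQ1 and sgRNA, and 0 rose and 3 fell with JQ1-FCPF and sgRNA. Of 55 assembly factors tested, 2 rose and 3 fell with JQ1 without sgRNA and 2 rose and 3 fell with JQ1 and sgRNA, shares below those of all genes. SDHAF4, which helps to assemble complex II, rose by 1.09 ± 0.16 and 0.84 ± 0.16 (edgeR adjusted p = 0.00089 and 0.00303). The 4 subunits of that complex were not called by edgeR with all libraries. For JQ1 with sgRNA, SDHA was called higher without the 2 libraries that stand apart. DESeq2 called SDHD, which was lower there, at a mean of 97.2 CPM against 114.7 CPM in the control. COA7, an assembly factor of complex IV, fell by 0.50 and 0.59, and by 0.76 with JQ1-FCPF and sgRNA, and TMEM70, an assembly factor of the ATP synthase, fell by 0.50, 0.76 and 0.45, the last call being lost without the 2 libraries that stand apart. Of 78 mitochondrial ribosomal protein genes 2 fell with JQ1 without sgRNA and 6 with JQ1 and sgRNA, including MRPL1 in both (-0.54 and -0.73), and none rose. Of all 15517 genes 966 and 1092 were called lower there. With JQ1 and sgRNA 65 of the 78 lay below 0. An unadjusted p under 0.05 was found for 23, all lower, against 2281 of all genes on the lower side. Their median of -0.16 was -0.01 without the 2 libraries that stand apart. Without the 2 libraries that stand apart the assembly factors called were 9 higher and 5 lower, and 6 and 3, and the ribosomal protein genes 5 and 8, and 2 and 7, in the same comparisons.

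The 22 mitochondrial tRNA rows lie between the subunit genes. With JQ1 without sgRNA 6 fell and 0 rose against the control, where 12.3% of all genes were called, with MT-TV, the tRNA for valine, falling by 1.73 ± 0.37 and MT-TY, that for tyrosine, by 1.24 ± 0.28 (edgeR adjusted p = 0.00596 and 0.00846), and the median over the 22 was -0.59. With JQ1 and sgRNA 6 rose and 0 fell, where 14.2% of all genes were called, with MT-TL2, a tRNA for leucine, at 1.23 ± 0.24 and MT-TR, that for arginine, at 0.92 ± 0.22 (edgeR adjusted p = 0.00279 and 0.0105), and the median was -0.01. Without the 2 libraries that stand apart 5 rose and 5 fell there, MT-TV and MT-TY among those that fell, with a median of -0.36, and for JQ1 without sgRNA 1 rose and 9 fell. With JQ1-FCPF against the control none was called with all libraries, and without those 2 libraries 4 rose with sgRNA. For JQ1 with against without sgRNA all 22 lay above 0, with a median of 0.67. An unadjusted p under 0.05 was found for 12, against 1264 of all 15517 genes, and edgeR called none, with or without those libraries. Mitochondrial ribosomal RNA genes were not analysed here.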

How the data were processed

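RNA sequencing was done on total RNA isolated with Trizol, with quality control and sequencing by Azenta, per the labels' protocols. The authors deposited raw read counts per gene, 1 table per library, in the column layout of featureCounts per the file headers. Aligner, build, annotation release, kit and use of strand were not given in the sources used here. Identifiers were matched to GENCODE release 29 (56898 found, 96.3% with the same start and end), so positions are in GRCh38, and 56410 had a symbol in a table of Ensembl names.

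Groups came from the labels. The counts were analysed with edgeR 4.0.16 (limma 3.58.1, R 4.3.3): filterByExpr kept 15517 genes, TMM scaled the libraries, and the quasi-likelihood fit took all 15 libraries with a term for each group, leaving 10 residual degrees of freedom at a biological coefficient of variation of 11.1%. In 9 comparisons p-values were adjusted over all genes by Benjamini-Hochberg, and a gene was called at an adjusted p under 0.05. CPM values are TMM-scaled, log2 values carry a prior count of 2, and TPM uses the exon lengths in the files. With totals of 12625669 to 17544518 counts, counting error matters mainly at a few CPM. The script was tested on simulated data.

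Named genes are the 13 mitochondrial genes, nuclear members called in any comparison, the highest and lowest members per complex, isoform pairs and up to 3 called genes per list. SDHA, the mitochondrial pair and the genes named without both libraries that stand apart were added after values were seen. Members and lists were chosen with earlier results of these data known. Of the members, 51 share exon bases with another gene row and 27 with a tested gene on the opposite strand, so their counts can be mixed. Alternatives were DESeq2 1.42.0, its size factors in edgeR, no filter, a fit of the compared groups, a replicate block, mitochondrial rows left out of the scaling, TPM for the ratio, and leaving out each library or the 2 that stand apart, the last for the other gene lists being chosen after seeing the data.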

Additional observations from a re-analysis of the deposited data

How the results depend on the processing

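The library median of the 13 mitochondrial genes had a pooled within-group SD of 0.49 on the log2 scale. A shift within this wide limit can include a change of sign, as for JQ1-FCPF without sgRNA against the control (0.08, range -0.13 to 0.39). By that measure the median change of the 13 mitochondrial genes stayed within 1 SD in 115 recomputed values and moved in 8. It moved for JQ1 with sgRNA against the control (-0.59 with JQ1 with sgRNA replicate 1 left out, and also with both libraries that stand apart left out, range over single libraries -0.59 to 0.27), for JQ1 with against without sgRNA (0.12 in both, range 0.12 to 0.96), for JQ1-FCPF against JQ1 with sgRNA (0.67 and 0.73, range -0.089 to 0.67) and for the interaction (-0.21 and -0.16, range -1.01 to -0.21). The nuclear median for JQ1 with sgRNA against the control changed sign, to 0.04 without control replicate 2 and 0.11 without JQ1 with sgRNA replicate 1 or both libraries, range -0.15 to 0.11. Ranges over single libraries also held both signs for JQ1-FCPF against JQ1 with sgRNA (-0.08 to 0.13) and for JQ1-FCPF with against without sgRNA (-0.07 to 0.07). The same was so for JQ1-FCPF against the control, without sgRNA (-0.01 to 0.10) and with it (-0.03 to 0.11). In TPM the log2 ratio of mitochondrial to nuclear sums was 2.60, 1.75, 2.52, 2.65 and 2.66 in the 5 groups, against 1.25, 0.45, 1.20, 1.31 and 1.32 in counts, and JQ1 without sgRNA stayed lowest.

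Counts of called members depended on the processing, and so did the share of all genes called. For JQ1 against the control it went from 12.3% to 26.9% without sgRNA when the 2 libraries that stand apart were left out. With sgRNA it went from 14.2% to 22.8%. For JQ1-FCPF against JQ1 the share went from 7.8% to 22.6% without sgRNA and from 2.95% to 20.2% with it. Shares without the filter or for the compared groups alone are not given here, so those counts are not results about the members. For JQ1 without sgRNA against the control 5 were called, and 14 without the filter, 32 when only these groups were fitted, 28 without the 2 libraries that stand apart, 3 with DESeq2 and 1 to 7 without single libraries. For JQ1 with sgRNA against the control 2 were called, and 6 without the filter, 20 without the 2 libraries, 5 with DESeq2 and 1 to 8 without single libraries. For JQ1-FCPF with sgRNA against the control 0 were called, 1 without the filter, and 0 to 1 without single libraries. For JQ1 with against without sgRNA 0 were called, and 12 without the filter. For JQ1-FCPF with against without sgRNA 0 were called, 2 without the filter, 1 each with DESeq2, with its size factors in edgeR, with mitochondrial rows left out of the scaling and without the 2 libraries, and 0 to 1 without single libraries. For JQ1-FCPF against JQ1 without sgRNA 4 were called, and 13 without the filter, 23 when only these groups were fitted, 25 without the 2 libraries, 2 with DESeq2 and 0 to 11 without single libraries. For JQ1-FCPF against JQ1 with sgRNA 0 were called, and 1 without the filter, 13 without the 2 libraries and 0 to 7 without single libraries. The interaction had 0, and 11 without the filter. The cause was not tested. Over all genes DESeq2 called 5 for JQ1 with against without sgRNA and 255 for the interaction, against 2 and 122 by edgeR, and no member in either. For single called genes 96 recomputed p-values kept their side of the threshold and 47 did not.

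The letters in the library titles left little trace: of 24 pairs with the same letter, 4 had a correlation of deviations above 0.1 (-0.238 to 0.311). The highest, 0.311 and 0.215, were both for JQ1 with sgRNA against the control. Low correlations cannot show that samples with the same letter were handled separately. With the letter as a replicate block, MT-ATP8 for JQ1 without sgRNA against the control had an edgeR adjusted p of 0.0506, so 4 members were called there, and no other call of a member changed. Depth limits NDUFA4L2 and COX6B2, at a few CPM.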
